A study of Mus musculus with 17 samples.

Results

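MicroRNA-31 (miR-31) is a small RNA whose precursor hairpin gives a mature strand from each of its sides, miR-31-5p and miR-31-3p. Its 2 assays, mmu-miR-31-5p and mmu-miR-31-3p, were taken by name from a real-time PCR panel of 357 miRNA assays run on mouse serum. The pair was chosen by its measured difference between transgenic mice with and without tumors, where the arms ranked 10 and 8 of 338 assays by p. Values of that comparison are therefore given as a description, and no conclusion is drawn from a test of it. Both arms gave a value in all 17 mice.

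The mice were 3 healthy wild-type FVB/N animals, 7 transgenic AT-ATX animals without tumors and 7 transgenic AT-ATX animals with spontaneous tumors. The AT-ATX mice carry a transgene for Autotaxin, which is released from cells and produces lysophosphatidic acid, a lipid signal. The labels do not name the promoter that drives it, the strain of the transgenic mice, the age of any animal or the site of the tumors. Each sample is labelled as a single mouse. RNA came from 50 µL of serum taken at necropsy, and PCR ran for 40 cycles.

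miRNAs guide the Argonaute protein to messenger RNAs that match a short stretch near their 5′ end, the seed, and lower the output of those messages. miR-31 is known as a miRNA of skin, gut and other epithelia, and it has been described as promoting or restraining tumors depending on the tissue. miRNAs in serum are carried by vesicles and protein complexes released from many tissues and blood cells, so a serum level does not name its source.

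The mature strands are shown because each arm was measured by its own assay, and the capitals mark the seed (bases 2 to 8).
miR-31-5p: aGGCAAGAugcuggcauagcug
miR-31-3p: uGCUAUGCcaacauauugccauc
The seeds differ between the arms, and no other of the 1679 mature mouse miRNA names in the RefSeq table carried either of them. The hairpin is 106 bases long, and in it the capitals mark the 5p strand first and the 3p strand second.
Mir31: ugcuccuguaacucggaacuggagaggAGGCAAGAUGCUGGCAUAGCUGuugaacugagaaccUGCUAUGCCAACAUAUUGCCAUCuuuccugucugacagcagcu
In RefSeq's annotation of GRCm38.p6 the hairpin lies on the minus strand at chr4:88910557-88910662. The 5p strand is at chr4:88910614-88910635 and the 3p strand at chr4:88910577-88910599. The span of the long noncoding RNA gene Gm49890 covers the hairpin, and whether this is an exon or an intron of it was not analysed here. The interferon gene Ifne is 30.4 kb away on one side. On the other side lie Mtap, an enzyme of methionine salvage, at 227 kb and Cdkn2a, which encodes cell cycle inhibitors, at 364 kb.

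A quantification cycle (Ct) is the PCR cycle at which an assay's signal crosses its threshold, so a lower Ct means more template. The mean Ct over the 17 mice was 29.3 ± 1.86 (SD) for miR-31-5p and 32.6 ± 1.69 for miR-31-3p. Among the 252 assays detected in every mouse, the arms ranked 110 and 214 from the lowest mean Ct. The 2 arms thus belonged to the middle and the weak part of the panel. The level used below is the mean Ct of those 252 assays minus the Ct of the arm, on a log2 scale, where 1 cycle stands for a doubling at full PCR efficiency. It is relative to the panel and is not an amount per volume of serum. From the lowest to the highest mouse the level spanned 14.8-fold for miR-31-5p and 15.5-fold for miR-31-3p. Of the 252 assays, 62.7% and 65.5% spanned less.

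Between 312 and 356 miRNA assays were detected per mouse. The red blood cell miRNAs miR-451a (mean Ct 19.1) and miR-16-5p (19.8) and the hepatocyte miRNA miR-122-5p (22.0) were detected in all 17 mice, as was miR-223-3p of myeloid cells (23.7). The usual measure of lysed red cells, miR-23a-3p Ct less miR-451a Ct (the hemolysis index), was 5.61 ± 2.07 (SD, n = 3) in wild-type, 4.38 ± 0.84 (n = 7) in tumor-free and 3.97 ± 1.97 (n = 7) in tumor mice. In 13 samples the final digits of the Ct values fell into 2 patterns, shared by 245 and by 120 assays, which were taken as the 2 plates of the panel. miR-31-5p fell in the larger set and miR-31-3p in the smaller, so the arms were taken as read on different plates, which no label states. Tumor replicate 1 and tumor-free replicates 4, 5 and 7 had a single decimal ending instead.

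The level of both arms was highest in wild-type mice, intermediate in tumor-free transgenic mice and lowest in tumor mice. No difference was detected between wild-type and tumor-free mice, but with 3 wild-type mice a lower level in tumor-free mice was not excluded. Tumor mice lay about 4-fold below wild-type mice for each arm. That difference did not pass under every scaling and test, and its tumor samples also served to choose the pair. In serum, fewer cells that release a miRNA and less release per cell cannot be told apart.

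For miR-31-5p the wild-type levels were 1.60, 0.23 and 1.45. Tumor-free mice ran from -0.67 through a median of 0.82 to 1.46, and tumor mice from -2.29 through -0.93 to 0.050. All 7 tumor mice lay below all 3 wild-type mice, a separation that 3.85% of the 338 assays tested showed in this direction and 9.17% in either. In addition, 4 of 7 tumor mice lay below every tumor-free mouse, and 3 of 7 tumor-free mice lay below every wild-type mouse. For miR-31-3p the wild-type levels were -2.48, -2.58 and -1.23. Tumor-free mice ran from -3.48 through -2.52 to -1.96, and tumor mice from -5.19 through -4.59 to -2.05. Here 6 of 7 tumor mice lay below all wild-type mice and 5 of 7 below every tumor-free mouse, so neither arm separated the transgenic groups fully, as 1.18% of assays did. The exception against wild type was tumor replicate 1, at -2.05, which was also the highest tumor mouse for miR-31-5p. It is among the samples with a single decimal ending, and it had the fewest assays detected (312).

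**Figure D1:**
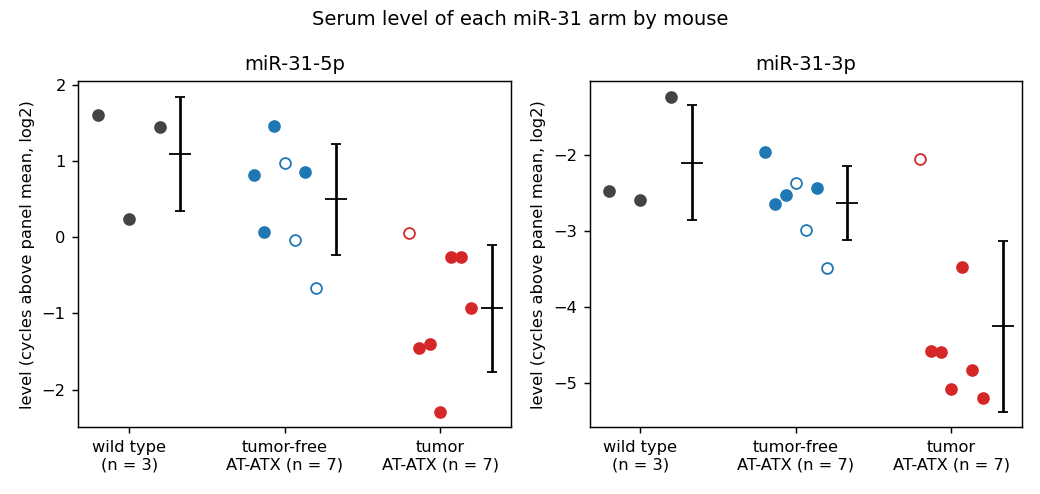
Level of miR-31-5p (left) and miR-31-3p (right) in each mouse, in cycles above the panel mean (log2), with the group mean ± SD as black bars. Open circles are the 4 samples with a single decimal ending. Tumor mice sit lowest for both arms, and tumor replicate 1 (open red circle) is the highest of them.

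Tumor mice were compared with wild-type mice in a two-sided limma fit that held all 3 groups. P-values were adjusted by Benjamini and Hochberg's method for all 338 assays, with a threshold of 0.05. In it 28 assays passed (8.28% of 338), 14 lower (4.14%) and 14 higher, and 25.1% had an unadjusted p under 0.05. Both arms of miR-31 were among the 14 that fell. The mean level of miR-31-5p was -0.94 ± 0.84 (SD, n = 7) in tumor mice and 1.09 ± 0.75 (n = 3) in wild-type mice. This was a log2 difference of -2.03 (SE 0.56, 95% interval -3.19 to -0.87, 4.08-fold lower, limma adjusted p = 0.0275). The mean level of miR-31-3p was -4.25 ± 1.12 (n = 7) and -2.10 ± 0.75 (n = 3), a difference of -2.15 (SE 0.59, 95% interval -3.38 to -0.92, 4.45-fold lower, limma adjusted p = 0.0275). The median difference of all 338 assays was 0.19. Of these assays 10 had a lower difference than miR-31-5p and 9 a lower one than miR-31-3p. These tumor samples are those of the comparison that chose the pair, so the calls are not independent of that choice.

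Both calls were lost with reference miRNAs as the scaling (adjusted p = 0.159 for miR-31-5p and 0.109 for miR-31-3p), with only these 2 groups in the fit (0.119 and 0.156, where 1 of 338 assays passed), and without wild-type replicate 3 (0.105 and 0.135) or tumor replicate 2 (0.0543 for both). The call for miR-31-5p was also lost without wild-type replicate 1 (adjusted p = 0.0927) and with spike-ins (0.0533), and that for miR-31-3p without wild-type replicate 2 (0.0506). By exact permutation of the group labels p was 0.00833 for miR-31-5p, the smallest that 3 against 7 mice allow, and 0.025 for miR-31-3p. Adjusted over the 338 assays these were 0.201 and 0.249, and 0 assays passed by that test (45 at an unadjusted p under 0.05).

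The difference from wild type was larger in raw Ct, where 290 of the 338 assays were below 0. The Ct of miR-31-5p was 27.3 ± 1.66 (SD, n = 3) in wild-type mice, 28.9 ± 1.35 (n = 7) in tumor-free mice and 30.7 ± 1.41 (n = 7) in tumor mice. The Ct of miR-31-3p was 30.5 ± 0.89, 32.0 ± 1.14 and 34.0 ± 1.06 in the same order. For each arm all 7 tumor mice had a higher Ct than all 3 wild-type mice, as in 13 of the 338 assays (3.85%). On the unscaled Ct the log2 difference between tumor and wild-type mice was -3.41 for miR-31-5p (limma adjusted p = 0.0435) and -3.53 for miR-31-3p (0.0158), against a median of -1.22 over all assays. With spike-ins it was -3.30 and -3.42 against a median of -1.08. The arms therefore stood about 2 cycles below the median of the panel under each of these scalings.

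**Figure D2:**
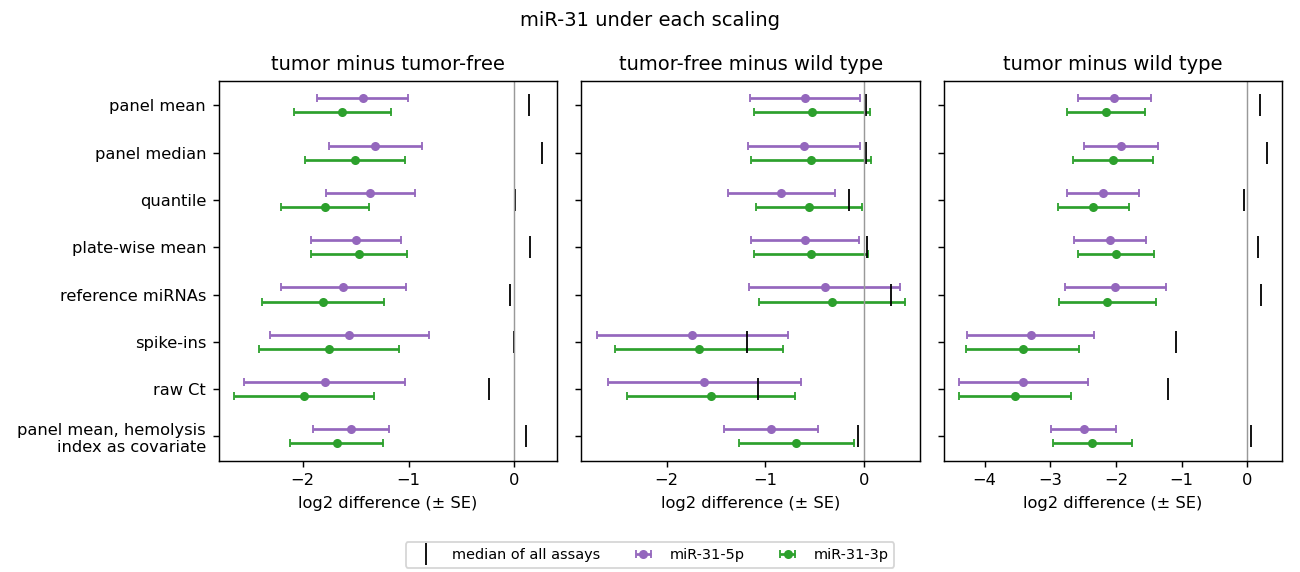
Log2 difference (± SE of the limma fit) of miR-31-5p (purple) and miR-31-3p (green) in the 3 comparisons, under 7 scalings and with the hemolysis index as a covariate; black ticks mark the median of all assays. Both arms lie below 0 and below that median under each setting in each comparison.

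The hemolysis index moved with the group order, so its values bear on this comparison. With the index as a covariate, the difference between tumor and wild-type mice was -2.49 for miR-31-5p (limma adjusted p = 0.0042) and -2.36 for miR-31-3p (0.0187). Without the 4 samples of a single decimal ending the differences were -2.18 (0.035) and -2.50 (0.026).

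Tumor-free transgenic mice were next compared with wild-type mice. The labels give neither the strain of the transgenic mice nor any age, so the transgene cannot be told apart from these. The mean level of miR-31-5p in tumor-free mice was 0.50 ± 0.73 (SD, n = 7), a difference from wild type of -0.60 (SE 0.56, 95% interval -1.76 to 0.56, limma adjusted p = 0.522). For miR-31-3p it was -2.63 ± 0.49 (n = 7), a difference of -0.53 (SE 0.59, 95% interval -1.76 to 0.70, limma adjusted p = 0.604). Neither arm passed, where 2 of 338 assays did (0.592%) and 22.5% had an unadjusted p under 0.05. Neither arm separated the groups, as 5.92% of assays did with tumor-free mice lower. By exact permutation p was 0.25 and 0.242. Both intervals hold 0 and reach down to -1.76, so with 3 wild-type mice a lower level of up to that size is not excluded. The intervals of tumor minus wild-type mice (-3.19 to -0.87 and -3.38 to -0.92) overlap them, and both comparisons share the same 3 wild-type mice. In raw Ct the differences were -1.62 and -1.55, against a median of -1.07 over all assays.

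Between tumor and tumor-free transgenic mice the 2 arms differed in parallel. The log2 difference was -1.43 (SE 0.43) for miR-31-5p, 2.70-fold lower, and -1.63 (SE 0.46) for miR-31-3p, 3.08-fold lower. All 7 tumor mice lay below the tumor-free mean for miR-31-5p and 6 of 7 did so for miR-31-3p. In the fit over all assays 5 of 338 passed (1.48%), 4 of them lower (1.18%), and neither arm was among them. Since this contrast chose the pair, nothing is read from that count. The median of all 338 assays was 0.14. Over the other scalings the difference ran from -1.31 to -1.79 for miR-31-5p and from -1.47 to -1.99 for miR-31-3p. Without the 4 samples of a single decimal ending it was -1.88 and -2.21.

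**Figure D3:**
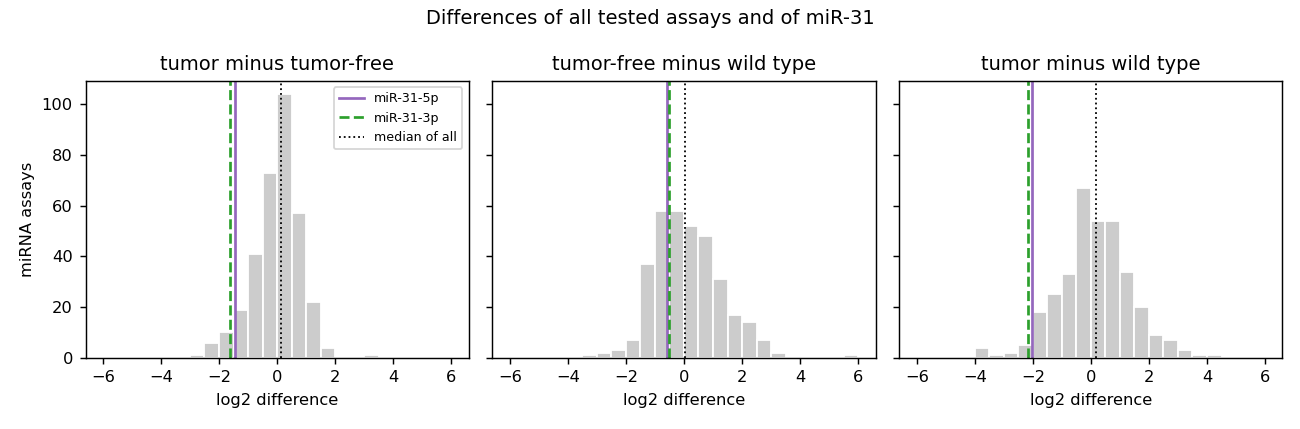
Histograms of the log2 differences of the 338 tested assays in each comparison, in bins of 0.5, with the arms of miR-31 as vertical lines. The arms lie in the lower tail in both comparisons with tumor mice (10 and 9 assays lower against wild type) and well inside the distribution between tumor-free and wild-type mice (89 and 101 assays lower).

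The number in the label of each transgenic animal has no stated meaning, but 2 numbers occur in both transgenic groups. Under number 77, the 2 tumor mice had a mean miR-31-5p level of -1.43 and the single tumor-free mouse a level of 0.072, a difference of -1.50. For miR-31-3p the difference under that number was -1.93. Under number 85, the single tumor mouse stood at -2.29 for miR-31-5p and the 2 tumor-free mice at a mean of 0.47, a difference of -2.76, and for miR-31-3p the difference was -2.40. These are parts of the contrast that chose the pair, with 1 or 2 mice on each side, and are given as a description. The hemolysis index was 7.09 in the tumor mouse under label number 85, against 3.88 and 5.54 in its tumor-free mice. Under label number 77 it was 2.29 and 5.83 in the tumor mice and 5.50 in the tumor-free mouse. With the number as a random block the difference between tumor and wild-type mice was -2.01 for miR-31-5p and -2.15 for miR-31-3p (limma adjusted p = 0.0301 for both).

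The balance of the arms was measured by the level of miR-31-5p minus that of miR-31-3p within each mouse, which is free of any scaling shared by both assays. A single-mouse value is not a ratio of amounts, because the assays may differ in efficiency. The arm difference was 4.07, 2.82 and 2.68 cycles in wild-type mice. It ran from 2.72 through a median of 2.94 to 3.98 in tumor-free mice and from 2.10 through 3.19 to 4.56 in tumor mice, so the groups overlapped widely. Its mean was 3.19 ± 0.77 (SD, n = 3), 3.12 ± 0.45 (n = 7) and 3.31 ± 0.84 (n = 7). No difference from wild-type mice was detected by exact two-sided permutation. Tumor-free minus wild-type mice gave -0.069 (exact p = 0.858, interval -0.95 to 0.71) and tumor minus wild-type mice 0.12 (exact p = 0.85, interval -1.27 to 1.65). The adjusted p was 0.858 for both by the exact permutation test, and the intervals hold the shifts that test did not reject at 0.05. Tumor minus tumor-free mice gave 0.19, with no test, since both arms were chosen on that contrast.

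The arms also varied together among mice of the same group, a measure the group differences do not enter. Over 17 mice with each group's mean taken off, r was 0.64 (permutation p = 0.00955) and rho 0.59 (permutation p = 0.0246). The relation did not pass after adjustment over the 15 relations examined (adjusted p = 0.143 and 0.185). It was r = 0.55 without the 2 mice farthest from the median of miR-31-5p. Within the tumor-free mice r was 0.80 (exact p = 0.029, n = 7) and within the tumor mice 0.66 (exact p = 0.0933, n = 7). Over the 30 within-group values of the 15 relations these adjusted to 0.435 and 0.686. It was lower, at 0.44, without the 4 samples of a single decimal ending. It was 0.88 in raw Ct, where every assay of a mouse also shares the amount of RNA.

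**Figure D4:**
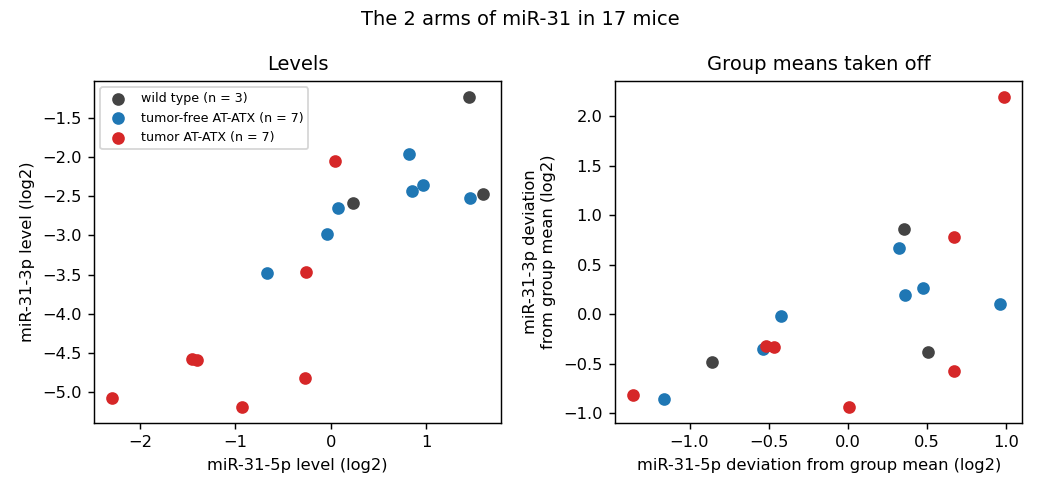
Levels of miR-31-3p against miR-31-5p in the 17 mice (left) and the same with each group's mean taken off (right), in log2 units. The points rise together within the groups (r = 0.64), and tumor replicate 1 is the red point at the upper right of the right panel.

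For comparison, 57 mouse hairpins had both arms tested with values in at least 15 mice. In 42 of them the arms fell in different sets of the 2 taken as plates. The within-group r of the arms ran from -0.58 to 0.95 over these hairpins with a median of 0.40, and miR-31 ranked 11. The SD of the arm difference within groups was 0.69 cycles for miR-31, against a median of 0.91. Between tumor and wild-type mice both arms passed in 2 of the 57 hairpins, miR-31 and miR-192, and both pairs fell. The differences of miR-192, a miRNA of liver and gut, were -1.57 (5p) and -2.37 (3p). For 6 further hairpins a single arm passed. As the arms of a hairpin come from the same transcript, they are not independent measurements.

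The miRNAs whose levels were most like each arm among mice of the same group were found by Pearson's r over 317 assays with values in at least 15 mice. For miR-31-5p these were miR-467d-3p (r = 0.72, n = 16), miR-467b-5p (0.71, n = 15), miR-382-5p (0.70, n = 15), miR-744-3p (0.66, n = 17) and the epithelial miR-200a-3p (0.66, n = 17). miR-31-3p came in place 7. For miR-31-3p these were miR-27a-5p (0.77, n = 17), miR-744-3p (0.69, n = 17), miR-31-5p (0.64, n = 17), the rat assay miR-351-5p (0.63, n = 17) and miR-335-5p (0.62, n = 17). Of these miRNAs other than the arms of miR-31, none passed between tumor and wild-type mice, where 8.28% of all assays did. With so few miRNAs nothing is read from that count. Their differences ran from -1.25 (the rat assay) to 1.29 (miR-382-5p). The values share the panel mean of each mouse, and these correlations are a description.

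The other members of an epithelium list were set beside miR-31. The list held miR-200a-3p, miR-200b-3p, miR-200c-3p, miR-141-3p and miR-429-3p, the miR-200 family that maintains the epithelial state. It also held miR-203-3p and miR-205-5p of stratified epithelia, miR-182-5p, miR-183-5p and miR-96-5p, which share a cluster, miR-375-3p of endocrine and gut epithelium, and the arms of miR-31. All 13 were on the panel and were tested. Between tumor and wild-type mice 2 of 13 passed, the arms of miR-31, both lower, where 8.28% of all assays passed and 4.14% passed as lower. The pair was chosen with these tumor samples, so its calls are not independent of that choice. Of the other 11, 0 passed in limma and 1 had an unadjusted p under 0.05 (25.1% of all assays did), with 6 above and 5 below 0 and a median of 0.11 beside 0.19 for all assays. With quantile normalization 6 of these 11 were below 0, and with raw Ct or spike-ins 10 were, with medians of -1.28 and -1.16 beside -1.22 and -1.08 for all assays. The lowest of the 11 was miR-200c-3p at -1.42 (limma adjusted p = 0.141) and the highest miR-205-5p at 1.43 (0.258).

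Between tumor and tumor-free mice all 13 were below 0, as were 150 of all 338 assays. In limma 0 of the 13 passed, where 1.48% of all assays did. An unadjusted limma p under 0.05 was held by 3 of the 11 others and by 16.9% of all assays. With undetected values at Ct 37, or without the 4 samples of a single decimal ending, 10 of the 11 others were below 0. The median of the 11 others was -0.81 beside 0.14 for all assays, from -1.78 (miR-182-5p) to -0.34 (miR-141-3p). In this comparison miR-31 was among the lower members of a list that as a whole lay below 0. The pair was chosen on this contrast, so nothing is read from its place in the list. The same list was part of the earlier results and is no independent evidence of a direction. Between tumor-free and wild-type mice 0 of 13 passed in limma, and 2 had an unadjusted p under 0.05, beside the 22.5% of all assays. There 10 of the 11 others were above 0, with a median of 1.05, while both arms of miR-31 and miR-200c-3p (-0.61) were below. Of all 338 assays 166 were below 0, with a median of 0.027. The split of the list depended on the scaling: with raw Ct 6 of 11 and with spike-ins 5 of 11 were above 0. In those settings 268 and 278 of all 338 assays were below 0.

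**Figure D5:**
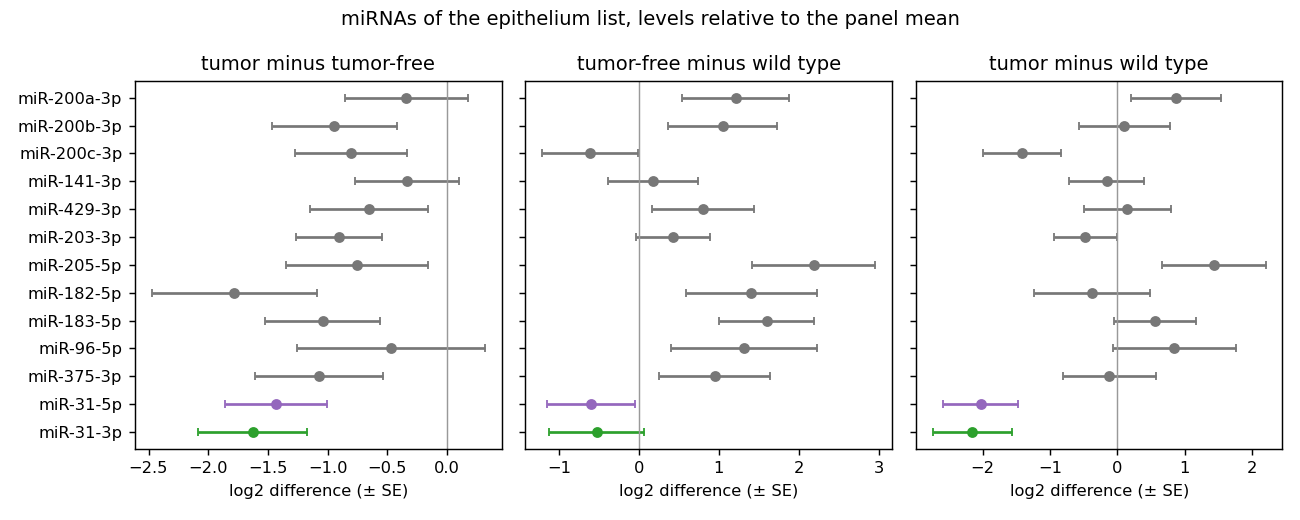
Log2 difference (± SE of the limma fit) of each of the 13 miRNAs of the epithelium list in the 3 comparisons, relative to the panel mean, with miR-31-5p in purple and miR-31-3p in green. All 13 lie below 0 between tumor and tumor-free mice, and the arms of miR-31 are the lowest of the list against wild type in tumor mice.

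To compare miR-31 with these miRNAs free of the panel mean, the mean level of the 11 others was taken from each arm within each mouse, a measure chosen after the data were seen. For miR-31-5p this gave 2.58, 2.30 and 2.52 in the wild-type mice and from -0.88 to 1.71 in the tumor mice, with 7 of 7 below all wild-type mice (2.46% of the 325 assays outside the list separated in that way). For miR-31-3p it gave -1.49, -0.52 and -0.16 in the wild-type mice and from -4.10 to -1.49 in the tumor mice, with 6 of 7 below. Tumor mice differed from wild-type mice by -2.06 for miR-31-5p (exact permutation p = 0.00833, adjusted p = 0.025 over 4 tests) and by -2.19 for miR-31-3p (exact permutation p = 0.025, adjusted p = 0.025). On the level itself the same exact permutation test, adjusted over all tested assays, gave adjusted p = 0.201 for miR-31-5p and 0.249 for miR-31-3p. These tumor samples are those of the contrast that chose the pair. The tumor calls against the epithelium members are therefore not independent of that choice, and their adjustment covers 4 tests only. Of the 325 other assays, 3.69% were lower at an unadjusted exact permutation p under 0.05 on this measure. The share of them with a lower difference than miR-31 was 2.77% for each arm. The call was lost without wild-type replicate 2 (adjusted p = 0.0556 and 0.0741) or 3 (0.0833 for both), where 2 wild-type mice remain. Tumor-free mice differed from wild-type mice by -1.39 for miR-31-5p (exact permutation p = 0.0167, adjusted p = 0.025) and by -1.32 for miR-31-3p (exact permutation p = 0.025, adjusted p = 0.025). There, however, 28.9% of the 325 assays were lower in the same way, and their median difference was -0.84, so this is not particular to miR-31. On the level itself the arms differed by -0.60 and -0.53 (limma adjusted p = 0.522 and 0.604). In that comparison 10 of the 11 others were above 0, so taking off their mean made each difference larger. The calls of that comparison were lost without wild-type replicate 2 (0.0556 for miR-31-5p and 0.0833 for miR-31-3p) or 3 (0.0833 for both), for miR-31-5p without wild-type replicate 1 (0.0833) and for miR-31-3p without the 4 samples of a single decimal ending (0.114).

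The levels of the arms were finally set against sample quality and blood cell lists among mice of the same group. For miR-31-5p r was -0.58 with the hemolysis index (permutation p = 0.0289) and rho was -0.53 (permutation p = 0.0532), with r = -0.57 once the 2 farthest mice were left out. With the red blood cell list (miR-451a, miR-144-3p and miR-16-5p) r was also -0.58 (permutation p = 0.0278) and rho was -0.55 (permutation p = 0.0432), with r = -0.55 once those mice were left out. With the 11 other epithelium members it was 0.53 (permutation p = 0.0475) and rho was 0.51 (permutation p = 0.0604), with r = 0.67 once those mice were left out. None passed after adjustment over the 15 relations (adjusted p = 0.144, 0.144 and 0.178 by r, 0.185 for each by rho). For miR-31-3p r was -0.24 with the index (permutation p = 0.489), -0.21 with the red blood cell list (permutation p = 0.537) and 0.30 with the epithelium members (permutation p = 0.363). Without its 2 farthest mice, tumor replicate 1 and wild-type replicate 3, these were 0.035, 0.0047 and -0.32, so they rest on those mice. With the liver, platelet and myeloid lists and the mean Ct of the panel, r lay between -0.34 and 0.49 over both arms, with the smallest permutation p at 0.0672. For the myeloid list, in tumor-free mice r was -0.89 for miR-31-3p (exact p = 0.00298, n = 7) and -0.78 for miR-31-5p (exact p = 0.0442, n = 7), and in tumor mice 0.039 and 0.065. Adjusted over the 30 within-group values the first pair gave 0.0893 and 0.442, and the difference between the groups was not tested. These relations hold the panel mean. Without it several changed sign, and those with the epithelium members were stronger.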

How the data were processed

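Serum RNA of 17 mice was measured by SYBR Green real-time PCR on serum miRNA panels I and II, per the labels' protocols. The deposited values are Ct per assay and sample, not normalized per the name of the file; the setting of threshold, plate calibration and detection limit was not given in the sources used here. Assays number 8 for controls and 357 for miRNAs (317 mouse, 40 rat). Cells with no value were read as undetected. No 2 samples held the same values (smallest SD of a difference 0.841 cycles). Replicates are numbered in accession order.

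Levels were computed as described in the report. Assays detected in at least 2 wild-type, 5 tumor-free and 5 tumor mice were tested (338, with 19 set aside), leaving out missing values, with limma 3.58.1 (lmFit and eBayes, R 4.3.3). Single values were compared by exact two-sided permutation, and correlations by 100000 reorderings within groups (Python 3.11.15, numpy 2.4.6, pandas 2.3.3, scipy 1.17.1). Undetected list members were set to Ct 37. The arm difference between tumor and tumor-free mice had been planned with a test, which was dropped because that contrast chose the pair. Fits and correlations were tested on simulated data. The number of mice limits the precision. Sequences and positions come from RefSeq tables of GRCm38.p6, which matched 260 of the 317 mouse assays by name.

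miR-31, the lists and the tests were chosen with earlier results of these data known. Named miRNAs were the arms of miR-31, the 5 most like each arm, the epithelium list, cell type markers, and miR-192, which was named after its values were seen. Alternatives were the scaling (among others on 5 spike-in controls or on the serum reference miRNAs miR-103-3p, miR-191-5p, miR-423-3p and miR-425-5p), detection limit, missing values, filter, variance model, label number as block, hemolysis index, samples in the fit and each mouse left out. The comparison with the other epithelium members, and the list correlations in raw Ct and with spike-ins, were added after the data were seen.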

Additional observations from a re-analysis of the deposited data

How the results depend on the processing

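No paired analysis was made, because the labels name no pairs of mice. The first number of each transgenic code has no stated meaning and was used as a random block. It is shared by both transgenic groups for 77 and 85 only and is in no wild-type code. Between tumor and wild-type mice both arms were lower under each of 15 alternatives and each of 17 leave-outs. miR-31-5p passed in 11 alternatives and miR-31-3p in 12, and each in 14 leave-outs. Where a call was lost the difference was -2.01 (5p) and -2.13 (3p) with reference miRNAs, -2.03 and -2.15 with only these groups or by exact permutation, and -3.30 (5p) with spike-ins. The cause was not tested. Leaving out a mouse gave -2.46 to -1.79 (5p) and -2.49 to -1.75 (3p). Neither arm passed between tumor-free and wild-type mice in any alternative or leave-out. The arm difference, which passed in neither comparison with wild type, changed sign with plate-wise scaling (-0.029 for tumor minus tumor-free and -0.090 for tumor minus wild type) and without the 4 samples of a single decimal ending (0.000695 for tumor-free minus wild type). Leaving out a mouse it ran from -0.014 to 0.40, from -0.13 to 0.57 (tumor minus wild type) and from -0.32 to 0.37 (tumor-free minus wild type).

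Against the other epithelium members, a measure added after the data were seen, leaving out a mouse gave -2.28 to -1.84 (5p) and -2.57 to -1.90 (3p) for tumor minus wild type, and -1.51 to -1.21 and -1.70 to -1.04 for tumor-free minus wild type. The last was -1.13 without the 4 samples. The correlation of the arms passed adjustment in raw Ct (r = 0.88), with spike-ins (0.88) and with reference miRNAs (0.81), and leaving out a mouse it ran from 0.60 to 0.73, passing without tumor replicate 6. Correlations with lists that changed sign in raw Ct and with spike-ins, both added after the data were seen, were for miR-31-5p red blood cell 0.29 and 0.29, platelet 0.83 and 0.83 and myeloid 0.57 and 0.55, and for miR-31-3p red blood cell 0.24 and 0.26, liver 0.71 and 0.71 and myeloid 0.36 and 0.33. The other lists kept their sign and passed adjustment in both settings, neither of which takes off the panel mean. For miR-31-5p these were epithelium (0.89 and 0.89) and liver (0.88 and 0.88). For miR-31-3p they were epithelium (0.70 and 0.69) and platelet (0.68 and 0.68). Of those that changed sign, platelet for miR-31-5p and liver for miR-31-3p passed. Of all 338 assays, 28 passed between tumor and wild-type mice (1 to 33 over the alternatives, 10 to 43 over leave-outs), 2 between tumor-free and wild-type mice (0 to 15, and 1 to 9) and 5 between tumor and tumor-free mice (0 to 13, and 2 to 10). miR-31-3p was read late in the PCR, with 1 value at or above Ct 35 (tumor replicate 4).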
